A study of Mus musculus with 6 samples.

Results

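Platelets carry RNA that they inherit from megakaryocytes, the large cells of bone marrow, spleen and lung that shed them, so transcripts made in megakaryocytes can be read in whole lung tissue wherever platelets or their parent cells lodge. Here 10 such transcripts were followed in mouse lung under endotoxin: the granule chemokines Pf4 and Ppbp, the von Willebrand factor receptor subunits Gp1ba, Gp1bb and Gp9, the fibrinogen receptor subunits Itga2b and Itgb3, the collagen receptor Gp6, the podoplanin receptor Clec1b, and Treml1, a receptor stored in alpha granules. They were taken by name, through the RefSeq accession of the array probe, and all 10 had a probe well above background on all 6 arrays, among 32455 genes and unnamed probes tested, 17515 of them named. The mice were male C57BL6 animals aged 10 weeks. After 16 h without food every mouse was given an intraperitoneal injection of lipopolysaccharide, the outer membrane component of Gram-negative bacteria, at 20 mg/kg. The antithrombin group (3 mice) was then treated with recombinant antithrombin, the plasma inhibitor of thrombin, at 750 IU/kg, and the saline group (3 mice) with saline, at 3 h and 24 h in each case. Lungs were taken at 30 h, and each label names a separate mouse. All 6 mice had endotoxin, and animals without it were not analysed here, so the values show platelet transcripts of endotoxin lungs with and without antithrombin and not the effect of endotoxin itself.

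Thrombin, the target of antithrombin, is a strong activator of platelets through protease-activated receptors. Activated platelets bind to each other through the integrin made of Itga2b and Itgb3, release granule chemokines that draw leukocytes, and gather in lung capillaries in endotoxin shock. In tissue RNA a lower platelet transcript can come from fewer platelets or megakaryocytes or from less of that RNA per cell, and these cannot be told apart in these data.

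Values are log2 intensities relative to the 75th percentile of each array, so 0 is the level of a fairly bright probe and a step of 1 is a doubling. Detection above background ran from 69.8% to 72.1% of probes per array, no spot was saturated, and the number of arrays limits the precision. Each of the 12 lung epithelial markers, among them surfactant genes, was well above background. Saline mouse 2 stood apart from the rest of its group: across tested genes its mean Pearson r was 0.993 with the antithrombin arrays and 0.989 with the other saline arrays, while saline mice 1 and 3 correlated with each other at 0.992. Results are therefore given with and without that mouse.

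The first comparison asked whether platelet transcripts in endotoxin lungs differed between antithrombin and saline. With all 6 mice, 9 of the 10 had a positive difference (antithrombin minus saline), against 43.0% of all genes tested. The median difference of the 10 was 0.76 on the log2 scale, against -0.05 over all genes. The 10 are not independent observations, since most of them shared an order of the same 6 mice, described below. The groups overlapped for every one of the 10, so 0 were separated, while the groups did not overlap for 28.9% of all genes. None of the 10 passed the adjusted threshold (limma with Benjamini-Hochberg adjustment, adjusted p from 0.26 to 0.878), where 0.00616% of all genes did. At an unadjusted p under 0.05 there were 0 of 10, against 21.6% of all genes.

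The chemokine pair behaved unevenly. Ppbp, the precursor of platelet basic protein and of the neutrophil attractants cut from it, had log2 signals of 1.00, 1.01 and 2.34 in antithrombin mice 1, 2 and 3, against -0.30, 1.73 and -0.53 in saline mice 1, 2 and 3. Saline mouse 2 lay above antithrombin mice 1 and 2, and the other saline mice below every antithrombin mouse. The difference was 1.15 (SE 0.66, 95% interval -0.42 to 2.72, limma adjusted p = 0.336). Pf4, platelet factor 4, which binds heparin and other glycosaminoglycans, had 5.47, 5.32 and 5.39 in antithrombin mice, against 4.88, 5.39 and 5.27 in saline mice. The Pf4 values of all 6 mice lay within 0.58 on the log2 scale, where those of Ppbp spanned 2.87. The Pf4 difference was 0.21 (SE 0.15, 95% interval -0.16 to 0.58, adjusted p = 0.438).

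Gp1ba, Gp1bb and Gp9, subunits of the von Willebrand factor receptor, had the same highest mouse, the same second highest and the same pair of lowest mice. Gp1ba, the subunit that binds von Willebrand factor and also thrombin, had -2.18, -2.33 and -1.16 in antithrombin mice, against -4.70, -1.67 and -4.56 in saline mice. Antithrombin mouse 3 and saline mouse 2 were the highest pair, and saline mice 1 and 3 were far below the other 4. From the highest mouse to the lowest Gp1ba spanned 11.6-fold in the processed signal, the widest range of the 10 genes there. The difference was 1.76 (SE 0.82, 95% interval -0.19 to 3.70, limma adjusted p = 0.26), and it was 0.95 from the median spot signal with normexp correction and an offset of 50. With that correction Gp1ba ran from -3.36 to -1.21, a narrower range than that of Ppbp, from -0.30 to 2.47. The fold range of Gp1ba thus depends on how background is handled. Gp1bb, the chain disulfide-linked to Gp1ba, had -2.96, -3.04 and -2.35 in antithrombin mice, against -3.93, -2.57 and -4.0 in saline mice, a difference of 0.72 (SE 0.41). Another Gp1bb probe was well above background on 1 antithrombin array and 1 saline array and was not tested. Gp9, the small subunit that the complex needs to reach the surface, had -0.70, -0.70 and 0.36 in antithrombin mice, against -1.74, -0.05 and -1.71 in saline mice, a difference of 0.82 (SE 0.52). In each of these genes the saline group held the second highest value and the lowest values together.

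The integrin subunits did not follow each other with the brightest probe of each, while a dimmer Itgb3 probe had saline mice 1 and 3 lowest, as Itga2b had. Itga2b, which marks megakaryocytes and early blood progenitors, had -3.68, -3.93 and -3.34 in antithrombin mice, against -6.18, -3.58 and -4.91 in saline mice. The antithrombin mice were close together, saline mouse 2 lay among them, and saline mice 1 and 3 lay below them all. The difference was 1.24 (SE 0.60, 95% interval -0.19 to 2.67, limma adjusted p = 0.274), and 0.40 from the median spot signal with normexp correction. In saline mouse 1 the processed signal of Itga2b was 11.7, near the lowest signal of any probe well above background on that array, 9.28, so its lowest value rests on signal near background.

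Itgb3, which pairs with Itga2b on platelets and with the alpha V subunit on endothelial and other cells, had 4.08, 3.93 and 3.67 in antithrombin mice, against 4.31, 4.30 and 3.68 in saline mice with its brightest probe. It was the only 1 of the 10 with a negative difference, -0.20 (SE 0.21, 95% interval -0.70 to 0.29). A dimmer Itgb3 probe for the same accession gave -0.68, -0.98 and -0.63 in antithrombin mice, against -1.47, -0.79 and -1.86 in saline mice. That probe had a difference of 0.61 (SE 0.27), with saline mice 1 and 3 lowest, so the 2 probes disagree in sign and in the order of mice.

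Among the signalling receptors, Clec1b and Treml1 ran with the von Willebrand factor receptor and Gp6 did not. Clec1b, which signals when it meets podoplanin, had -0.46, -0.48 and 0.55 in antithrombin mice, against -1.38, -0.06 and -1.28 in saline mice, a difference of 0.78 (SE 0.43, limma adjusted p = 0.32). Treml1, which binds fibrinogen, had -0.94, -1.03 and 0.27 in antithrombin mice, against -1.99, -0.10 and -1.82 in saline mice, a difference of 0.74 (SE 0.58). A dimmer Treml1 probe, well above background in 3 antithrombin mice and 2 saline mice, gave 0.98 (SE 0.72). Gp6, the main collagen receptor, had -2.23, -2.56 and -1.67 in antithrombin mice, against -2.53, -2.10 and -2.05 in saline mice. Its range was 0.90, antithrombin mouse 2 was lowest, and the difference was 0.07 (SE 0.25, 95% interval -0.53 to 0.67). The dimmer Gp6 probe gave -0.01 (SE 0.21), with antithrombin mouse 2 lowest as well.

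**Figure D1:**
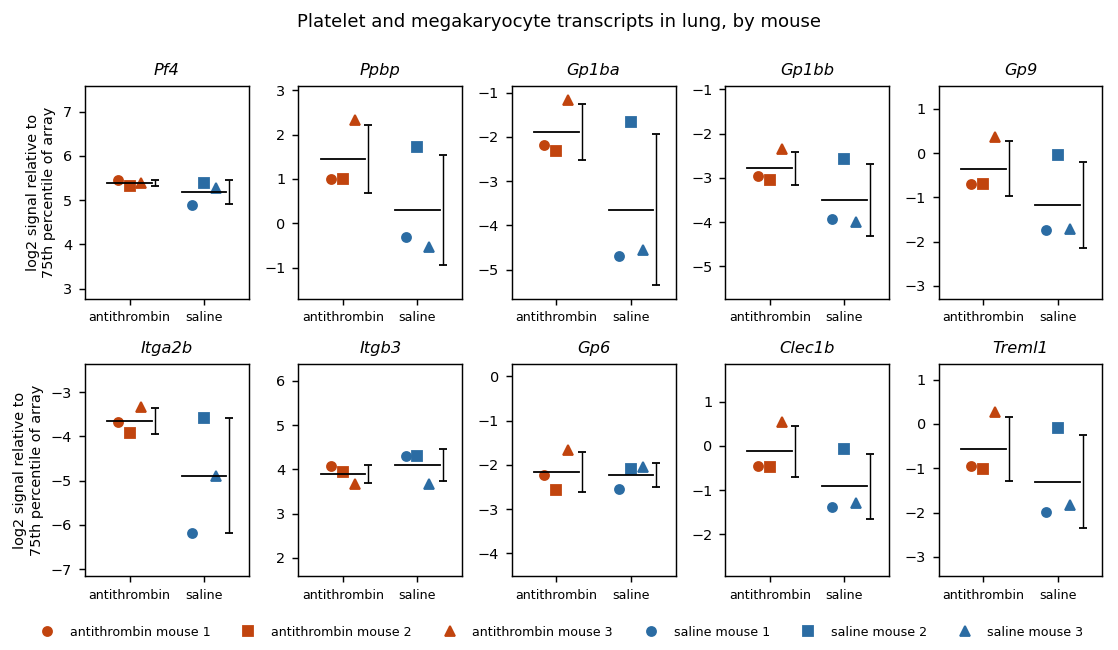
Log2 signal relative to the 75th percentile of the array (vertical axis, the same span in every panel) for the 10 genes in 3 antithrombin mice (red) and 3 saline mice (blue), with the mean as a line and the SD as a bar. In Ppbp, Gp1ba, Gp1bb, Gp9, Itga2b, Clec1b and Treml1 antithrombin mouse 3 and saline mouse 2 are the highest pair and saline mice 1 and 3 are lowest, while Pf4, Itgb3 and Gp6 vary less.

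As a median, the 10 genes varied more between mice of the same group than all genes did. Pf4 was an exception in antithrombin mice, with an SD of 0.07, but not in saline mice, with 0.26. Its range was 0.58. The median SD over the 10 was 0.52 in antithrombin mice and 0.89 in saline mice, against 0.15 and 0.19 over all genes tested. An SD of at least 1 among saline mice was found for 4 of the 10 (Ppbp, Gp1ba, Itga2b and Treml1) and for 1.3% of all genes. The median range over the 6 mice was 2.02 for the 10 genes and 0.59 for all genes.

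Much of the order was shared. In 7 of the 10 genes antithrombin mouse 3 and saline mouse 2 were the highest pair, antithrombin mice 1 and 2 came next, and saline mice 1 and 3 were lowest, an order that 2.77% of all genes had and that was written down after the values were seen. Antithrombin mouse 3 was the highest mouse in 8 of the 10 genes and saline mouse 1 the lowest in 6. Taking each gene relative to its own mean, the 10 genes averaged 0.18, 0.06 and 0.85 in antithrombin mice 1, 2 and 3, against -0.91, 0.57 and -0.75 in saline mice 1, 2 and 3. The spread between saline mice 2 and 1 was thus wider than that between any antithrombin mouse and saline mouse 2.

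Promoter sequences of 5 of the 10 genes are shown because megakaryocyte genes are known to be controlled through GATA and ETS motifs. All 5 hold a match to at least 1 of these motifs, and Pf4 among them lacks the shared order of mice. Whether promoters had a part in that order was not tested. RefSeq promoters on build GRCm38.p6, reaching from 250 bases before the gene start to 50 after it, were matched for 9 of the 10 genes, and Itgb3 had no entry. Motifs were searched on both strands. Those of the GATA family were the hexamer AGATAA, the variant of it that ends in G instead, written AGATAG, and the matching forms that begin with T instead, written TGATAA when ending in A and otherwise TGATAG. Those of the ETS family were the hexamer AGGAAG and the form beginning with C instead, written CGGAAG. No GATA match overlapped an ETS match. Capitals mark these matches. The windows are chr5:90772185-90772484 for Pf4, chr11:70638872-70639171 for Gp1ba, chr6:87777820-87778119 for Gp9 and chr6:129397047-129397346 for Clec1b, all on the plus strand, and chr11:102469834-102470133 for Itga2b on the minus strand, each written 5′ to 3′ along its gene.
Pf4: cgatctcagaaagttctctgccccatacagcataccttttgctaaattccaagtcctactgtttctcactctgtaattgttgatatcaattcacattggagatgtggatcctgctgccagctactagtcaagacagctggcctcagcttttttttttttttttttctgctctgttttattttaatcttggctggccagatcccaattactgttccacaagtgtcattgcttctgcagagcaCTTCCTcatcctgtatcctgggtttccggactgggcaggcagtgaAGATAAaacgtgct
Gp1ba: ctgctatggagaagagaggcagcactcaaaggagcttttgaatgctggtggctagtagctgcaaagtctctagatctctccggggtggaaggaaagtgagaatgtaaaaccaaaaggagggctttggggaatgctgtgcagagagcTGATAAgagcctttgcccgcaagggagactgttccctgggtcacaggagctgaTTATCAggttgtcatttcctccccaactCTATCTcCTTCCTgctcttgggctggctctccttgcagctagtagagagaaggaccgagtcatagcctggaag
Gp9: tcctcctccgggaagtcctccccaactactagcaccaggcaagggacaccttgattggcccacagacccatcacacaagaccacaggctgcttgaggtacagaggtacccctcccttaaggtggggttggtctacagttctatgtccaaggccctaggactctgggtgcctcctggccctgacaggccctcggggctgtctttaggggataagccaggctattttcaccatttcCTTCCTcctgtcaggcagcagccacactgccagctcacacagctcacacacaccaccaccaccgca
Itga2b: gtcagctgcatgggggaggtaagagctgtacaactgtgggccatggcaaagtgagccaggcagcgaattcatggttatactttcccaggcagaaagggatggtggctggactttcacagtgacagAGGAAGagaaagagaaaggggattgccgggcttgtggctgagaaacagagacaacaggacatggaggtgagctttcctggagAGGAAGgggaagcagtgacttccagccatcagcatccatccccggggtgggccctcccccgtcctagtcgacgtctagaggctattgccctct
Clec1b: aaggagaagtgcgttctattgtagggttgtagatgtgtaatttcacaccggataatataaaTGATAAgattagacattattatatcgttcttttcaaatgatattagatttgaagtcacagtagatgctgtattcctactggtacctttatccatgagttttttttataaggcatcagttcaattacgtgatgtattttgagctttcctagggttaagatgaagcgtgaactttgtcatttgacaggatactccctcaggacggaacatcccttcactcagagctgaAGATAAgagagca
A GATA match was present in 5 of the 9 promoters (Pf4, Gp1ba, Gp1bb, Gp6 and Clec1b), where 29.8% of all 32851 promoters of that length hold one. An ETS match was present in 5 of the 9 (Pf4, Gp1ba, Gp1bb, Gp9 and Itga2b), against 46.5% of all promoters. Gp1ba held 3 GATA matches, the last of them separated by 1 base from its ETS match. Ppbp and Treml1, which varied with the others, held neither motif in this window, and Gp6, which did not, held a GATA match. These matches describe the letters and are not evidence of binding.

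Leaving out single mice moved the differences but kept their sign for 9 of the 10 genes, the exception being Gp6. Without saline mouse 2 the median difference was 1.27, and the 3 antithrombin mice lay above both remaining saline mice in 8 of the 10 genes, as did 21.2% of all genes. Gp1ba, Gp1bb and Itga2b then passed the adjusted threshold, with log2 differences of 2.74 (SE 0.36, limma adjusted p = 0.0266), 1.18 (SE 0.23, adjusted p = 0.038) and 1.89 (SE 0.39, adjusted p = 0.0431). Among all genes 4.65% were called higher and 5.88% lower in that fit. Its 2 saline values for Itga2b came from processed signals of 11.7 in mouse 1, near background, and 23.5 in mouse 3. With all 6 mice, normexp correction lowered the differences of Gp1ba, Gp1bb and Itga2b to 0.95, 0.37 and 0.40. That correction was not combined with leaving out a mouse. Saline mouse 2 was the saline mouse with the highest mean over the 10 genes, so leaving it out widens the gap by construction. Ppbp, at 1.87 without that mouse, missed the threshold (limma adjusted p = 0.0523). At an unadjusted p under 0.05, 7 of the 10 were higher, against 13.5% of all genes. Without antithrombin mouse 3, which was highest in most of the 10, the median difference was 0.45, and without saline mouse 1 or 3 it was 0.52 or 0.51.

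The arrays lay on 1 slide, in 2 rows. The first row held antithrombin mice 1 and 2 and saline mice 1 and 2, and the median difference of the 10 genes within it was 0.25. The second row held antithrombin mouse 3 and saline mouse 3, and there it was 1.74, from 1 mouse per group. Treml1 differed by 0.06 in the first row and 2.09 in the second, while Gp1ba differed by 0.94 and 3.40. A limma fit with the row as a block had 0 of the 10 past the adjusted threshold. Its median difference stayed at 0.76, which such a block could not change. The part of the row cannot be told apart from that of the mice, since each row also holds different mice.

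**Figure D2:**
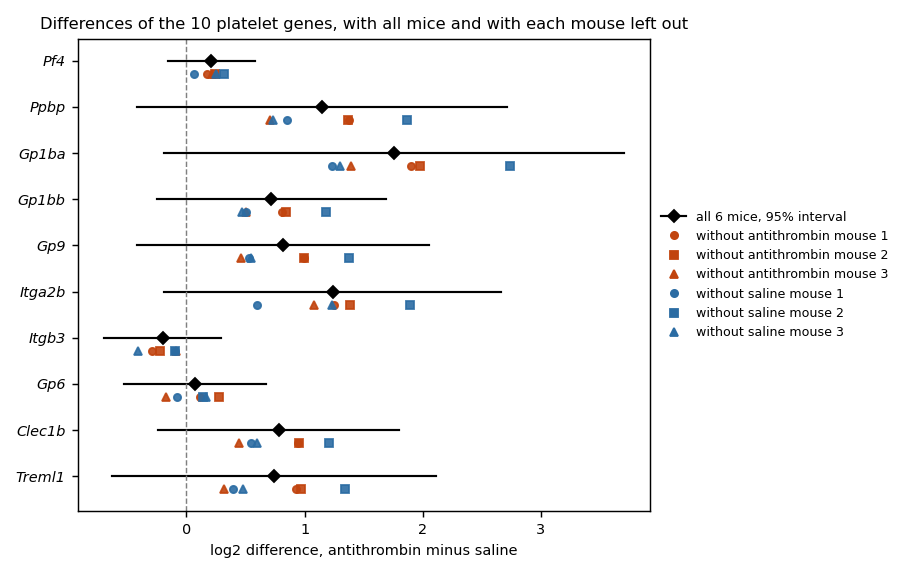
Log2 difference, antithrombin minus saline (horizontal axis), for the 10 genes, as a diamond with its 95% interval from limma for all 6 mice and as coloured points with each mouse left out in turn. Every interval with all 6 mice includes 0, and for 8 of the genes the difference was largest without saline mouse 2, as for Gp1ba at 2.74.

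The order of mice seen in most of the 10 was also found in some platelet genes outside them. Of 58 tested genes in 4 further platelet and megakaryocyte lists, 7 had it, where 2.77% of all genes did, and so did 2 of 11 neutrophil markers. The 7 were the receptors Gp5, F2rl2 and Mpig6b, the megakaryocyte tubulin Tubb1, the signalling inhibitor Rgs18, the platelet lipoxygenase Alox12 and the transcription factor Gata1. They and the neutrophil genes below are named after their values were seen. Gp5, the fourth chain of the von Willebrand factor receptor, had -4.55, -4.40 and -3.52 in antithrombin mice, against -5.28, -3.77 and -7.37 in saline mice. In saline mouse 3 Gp5 was not well above background, so the last value is only a bound. F2rl2, the protease-activated receptor that helps thrombin act on mouse platelets, had -2.28, -2.05 and -1.12 in antithrombin mice, against -2.61, -1.56 and -3.69 in saline mice. The gene of the other thrombin receptor of mouse platelets, F2rl3, was well above background on 1 array and was not tested.

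Alox12 had -1.03, -1.09 and 0.20 in antithrombin mice, against -2.27, -0.43 and -2.39 in saline mice. Gata1, which drives megakaryocyte and red cell genes, had -2.34, -2.82 and -1.94 in antithrombin mice, against -4.06, -2.17 and -3.87 in saline mice. None of these 7 passed the adjusted threshold.

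Among named genes in no list, the 5 whose profile over the 6 arrays lay nearest to the mean of the 10 were F5, Egr1, Il6, Slc6a4 and the noncoding Gm2848, out of 17374 compared. Likeness was the root mean square difference between centred log2 values, and it was 0.073 for F5, 0.108 for Egr1, 0.112 for Il6, 0.13 for Slc6a4 and 0.158 for Gm2848. F5 encodes clotting factor V, which platelets carry in alpha granules, and had -1.21, -1.22 and -0.46 in antithrombin mice, against -2.43, -0.80 and -2.12 in saline mice. Slc6a4, the serotonin transporter of platelets and lung endothelium, had -3.22, -3.41 and -2.24 in antithrombin mice, against -4.10, -2.78 and -4.05 in saline mice. Egr1 is an immediate early transcription factor and Il6 a cytokine, and neither is a platelet marker.

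**Figure D3:**
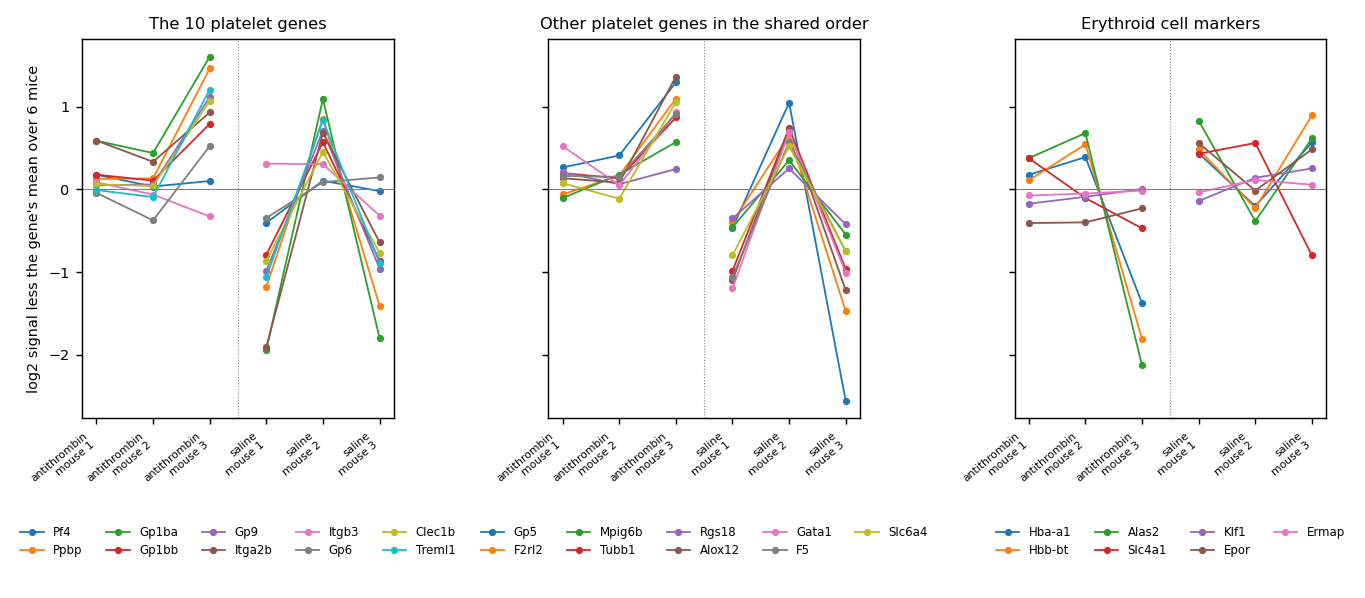
Log2 signal less each gene's mean over the 6 mice (vertical axis) by mouse (horizontal axis), with lines that only join the points of 1 gene within a group. The left panel shows the 10 platelet genes, the middle panel 9 other genes, the 7 listed platelet genes picked for the shared order and F5 and Slc6a4, picked for their likeness, and the right panel 7 erythroid markers, where antithrombin mouse 3 is lowest for Hba-a1, Hbb-bt and Alas2.

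The other platelet lists as wholes did not share the size of these differences. Over the 58 genes 32 had a positive difference, with a median of 0.12, and 0 passed the adjusted threshold (limma). At an unadjusted p under 0.05, 4 were higher and 8 lower, against 8.73% and 12.9% of all genes. Among granule and cytoskeleton genes Myl9, the myosin light chain also made by smooth muscle, had 4.33, 4.42 and 4.64 in antithrombin mice, against 3.16, 3.95 and 2.98 in saline mice, a difference of 1.10 (SE 0.26, limma adjusted p = 0.155). F13a1, the clotting factor XIII subunit that macrophages also make, differed by 0.78 and the growth factor gene Pdgfb by 0.80. The groups did not overlap for these 3, which were chosen by the smallest p, nor for Thbs1 (0.55) and Gng11 (-0.31). That made 5 of 17 genes of the list, near the 28.9% of all genes.

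Genes with the smallest p in the other lists were mostly lower with antithrombin. Ptgs1, the cyclooxygenase that makes thromboxane precursor in platelets, had 2.41, 2.29 and 1.82 in antithrombin mice, against 3.45, 2.89 and 3.28 in saline mice, a difference of -1.03 (SE 0.21, limma adjusted p = 0.151). The phosphodiesterase Pde3a differed by -0.91 and the kinase Prkca by -0.36. Of the megakaryocyte factors, the Gata1 partner Zfpm1 differed by -0.66, the ETS factor Fli1 by -0.38 and the kinase Jak2 by -0.30, and thrombopoietin (Thpo) by -0.01. Of the receptors, Cd9 differed by -0.25, Pear1 by -0.41 and Cd226 by 0.82. Cd226 was dim, and well above background in 3 antithrombin mice but only 2 saline mice. Many of the genes in these lists are also made outside platelets in lung, and the part of other cells in their values was not tested.

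Globin genes and Alas2 moved against the 10 genes between mice, other erythroid markers did not all do so, and neutrophil markers moved partly with them. For red cells, 0 of 8 tested markers had a positive difference, and the summed signal of the list, in units of each array's 75th percentile, ran from 313 to 1072 in antithrombin mice, against 716 to 1227 in saline mice. Hba-a1, an alpha globin gene with a near-identical copy in the genome, had 8.79, 9.0 and 7.23 in antithrombin mice, against 9.05, 8.41 and 9.18 in saline mice. The mice highest for platelet transcripts, antithrombin mouse 3 and saline mouse 2, were thus the lowest for alpha globin, and saline mice 1 and 3 the highest. The erythroid markers Slc4a1 and Ermap were instead highest in saline mouse 2, at -2.84 and 0.36. Rhag, a red cell membrane gene, was well above background in 0 of 6 mice. For neutrophils 9 of 11 markers had a positive difference, with a summed signal of 1521 to 1649 in antithrombin mice, against 1409 to 1602 in saline mice, and saline mice 1 and 3 lowest on the list mean. The calcium-binding neutrophil genes S100a8 and S100a9 had the order of the 10. The part of red cells and neutrophils in the platelet values was not tested.

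Of 8 tested mast cell and basophil markers and of 12 endothelial markers, 0 had the order of the 10, against 2.77% of all genes, so lists of this size may hold none at that share. Mast cell precursors can also carry Itga2b. Cpa3, a mast cell protease, had -3.51, -3.76 and -5.83 in antithrombin mice, against -5.04, -4.35 and -5.69 in saline mice. Antithrombin mouse 3, highest for Itga2b, was lowest for Cpa3, with saline mouse 3 close to it. Both of these Cpa3 values were near background, so their order is uncertain. The chymase gene Cma1 had -4.83, -4.36 and -4.38 in antithrombin mice, against -5.07, -4.48 and -5.34 in saline mice, with saline mice 1 and 3 lowest as for Itga2b. The part of mast cells in the Itga2b values was not tested. Endothelial markers, which bear on Itgb3, had a median difference of -0.14, with 10 of 12 negative.

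**Figure D4:**
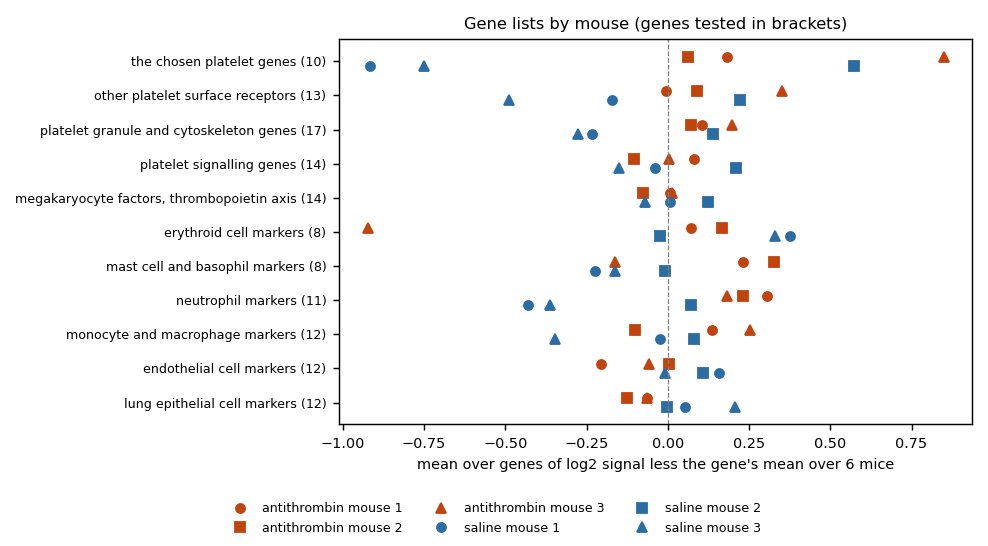
Mean over the genes of each list of log2 signal less the gene's mean over the 6 mice (horizontal axis), 1 point per mouse, antithrombin mice in red above saline mice in blue. The 10 platelet genes spread from -0.91 in saline mouse 1 to 0.85 in antithrombin mouse 3, and erythroid markers are lowest in antithrombin mouse 3 at -0.92.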

How the data were processed

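RNA from the lungs of 6 mice was read on Agilent arrays in 1 colour (Cy3), 1 array per mouse. Groups and mouse numbers come from the sample titles. The deposited scanner files hold spot intensity, which per the file headers Agilent Feature Extraction 10.7.3.1 subtracted for background without scaling between arrays. The submitters' processing notes name version 9.1. The authors' deposited value table holds log2 values whose scaling between arrays and constant per probe are not given in the sources used here. Set against the scanner files after centring each probe and then each array, 100% of its probes fell within 0.01.

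From the intensity values, control spots and outlier spots were left out, spots of a probe averaged as log2, and the log2 75th percentile of each array subtracted. Of 56605 probes, 32994 were named through unversioned RefSeq accessions of GRCm38.p6, which served for names since the array design is on another build. The brightest probe stood for a gene, and unnamed probes stood alone. Genes needed detection above background on 3 or more arrays. The test was limma's moderated one (version 3.58.1, R 4.3.3; lmFit, then eBayes), two-sided and adjusted by Benjamini-Hochberg over all genes at 0.05, and checked on simulated data. Normexp, with an offset of 50, used the median spot signal, a mean being absent from the files.

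The 10 genes and all lists were chosen with earlier results of these data known, and no list was tested as a set. Named outside the 10 were, per list, the 3 tested genes with the smallest p and, where few, those never above background, plus the 5 genes nearest in profile. Some of these are given as other observations, exceptions are stated, and some items that the rule names are not reported here. The mouse numbers do not pair the samples (correlations of deviations -0.01, -0.16 and -0.28), so the block on them is an alternative only. Figures used matplotlib 3.10.9.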

Additional observations from a re-analysis of the deposited data

How the results depend on the processing

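The 17 alternatives changed 1 choice each, except that normexp also took the median spot signal in place of the processed one and added an offset of 50: the background correction, the scaling, the filter on dim probes, the probe, the value table, the variance, array weights, a block, or leaving out a mouse. Of 170 differences of the 10 genes under them, 167 kept their sign. The exceptions were Itgb3, at 0.20 as the mean of its probes, and Gp6, which reached -0.17 without antithrombin mouse 3 and -0.08 without saline mouse 1. The filters, the variance and the blocks change only the p, so the signs under them were fixed in advance. So were those of genes with a single tested probe when all probes were taken singly. The value table moved the differences very little and is close to a repeat of the main fit. The difference for Gp6 ran from -0.17 to 0.28 over leaving out each mouse. The cause was not tested. None of the 10 passed with all 6 mice under any alternative (limma), and with array weights 5 had an unadjusted p under 0.05, as did 29.3% of all genes. The number that passed ran from 0 to 3 over leaving out each mouse. The median difference ran from 0.45 to 1.27 over leaving out each mouse and was 0.49 with normexp background correction and 0.89 with array weights. With normexp, Gp1ba differed by 0.95, Itga2b by 0.40 and Gp1bb by 0.37. Over all genes 2 passed, and 1 with normexp, quantile normalization, median scaling, no filter, the stricter filter, all probes singly, a trended and robust variance, or the array row as a block. With the replicate block on mouse number 0 genes and 0 of the 10 passed. The number of genes ran from 0 to 3415 over leaving out each mouse, and the highest count was without saline mouse 2. Signal near background limits Itga2b in saline mouse 1.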

Other observations

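Erythroid genes other than alpha globin parted into those that followed it and those that did not. Alas2, the heme synthesis enzyme of red cells, had 1.03, 1.33 and -1.48 in antithrombin mice, against 1.48, 0.27 and 1.27 in saline mice, and the beta globin gene Hbb-bt had 5.61, 6.04 and 3.69, against 5.98, 5.27 and 6.39. Antithrombin mouse 3 was lowest for both. Epor, the erythropoietin receptor, which endothelial cells also carry, had a difference of -0.69 (SE 0.17, limma adjusted p = 0.155) without overlap of the groups. Klf1, the erythroid transcription factor, differed by -0.17 (SE 0.14).

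In the remaining lists the genes with the smallest p were of mixed direction, and none passed the adjusted threshold. Among mast cell and basophil genes the histidine decarboxylase gene Hdc differed by 0.38, the chymase gene Cma1 by 0.44 and the IgE receptor chain Fcer1a by 0.45, while no array measured Ms4a2 well above background. Among neutrophil genes the granule peptide gene Camp differed by 1.21, the collagenase Mmp8 by 0.79 and the chemokine receptor Cxcr2 by 0.67. Of the monocyte and macrophage genes, Cx3cr1 differed by 1.6, Adgre1 by 0.64 and Itgax by 0.51. The endothelial genes Erg, Ramp2 and Robo4 differed by -0.55, -0.50 and -0.45, and the epithelial genes Hopx, Aqp5 and Cldn18 by -0.52, -0.47 and -0.33.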
